A study of Homo sapiens with 4 samples.

Results

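The genes described here encode the SR proteins, the related TRA2 proteins, the CLK kinases that phosphorylate SR proteins, and the hnRNPs. They were chosen by gene symbol, with earlier results of these data known, as every SRSF, TRA2, CLK1 to CLK4 and HNRNP gene in the deposited table, with pseudogenes left out. This gave 39 genes of the 30863 in the table: 12 SR protein genes, 2 TRA2 genes, 4 CLK genes and 21 hnRNP genes. RNA was measured by sequencing of poly(A)-selected RNA from HepG2, a long-established line of human liver tumour cells, labelled as hepatoblastoma and wild type. Cells of the control group received the solvent DMSO for 48 h, and cells of the other group received AMF, which the series title gives as amentoflavone, a plant biflavonoid, for 48 h. Each group had 2 libraries, numbered as replicates 1 and 2. The sources conflict on the treatment: 90 µM AMF stands in the protocol and 80 µM Tub B in the design text. Neither compound nor dose is therefore certain, and AMF is used below as the name on the sample labels.

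SR proteins carry RNA recognition motifs and a domain rich in arginine and serine, bind enhancer sequences in exons, and help the spliceosome to recognise splice sites. The hnRNPs coat newly made transcripts and often act against the use of nearby splice sites, although several do both. CLK kinases phosphorylate the arginine-serine domain and so set where SR proteins lie in the nucleus and how active they are. Many of these genes limit their own output by splicing in a poison exon or retaining an intron, which sends the transcript to nonsense-mediated decay or keeps it in the nucleus. The values here are reads per gene and do not separate such transcripts from those that encode the full protein.

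Reads counted in genes ranged from 24226586 to 26966210 per library. Counts differed by more than counting noise between the DMSO libraries (chi-square per degree of freedom 4.02) and between the AMF libraries (2.27), and by 61.6 to 63.1 across the groups. Nothing in the labels says that replicates were separate cultures, so the spread behind each p-value is that of these libraries alone and may be technical. Levels are normalized counts, meaning reads divided by a size factor per library, and 1 read equals 0.929 to 1.03 of them. Changes are differences, AMF minus DMSO, in log2(normalized count + 1). A gene is said to have risen or fallen where limma's adjusted p over all genes tested was below 0.05. All 12 hepatocyte markers examined were present, with ALB at 116050 to 125340 normalized counts, and their summed level was 610630 and 632340 in DMSO and 437700 and 460080 in AMF, where 2 rose and 8 fell. Of the markers of other cell types, CD3E, HBB, KDR, COL1A2, DCN and LUM had at most 3.09 normalized counts in any library, whereas LYZ had 17443 to 25206. In bulk RNA, fewer cells of a kind and less RNA per cell cannot be told apart.

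Most of these splicing factor genes were lower after AMF. All 39 were tested, and 29 fell, 1 rose (CLK3) and 9 did not pass. Over all 23828 genes tested, 31.8% passed, 15.6% higher and 16.2% lower. Since splicing factors are well expressed, the closer background is the 11137 genes averaging 100 normalized counts or more, of which 54.7% passed, 23.6% higher and 31.1% lower. Of the 37 splicing factor genes above that level, 29 fell and 1 rose, so 78.4% fell. Their median change was -0.33, against -0.04 for all genes of that level, and over all 39 it was -0.31, against 0.04 for all genes tested. This background was not matched for level. In DMSO replicates 1 and 2 the 37 had a median of 5041 and 4541 normalized counts, against 931 and 927 for the background. Standard errors were smaller at higher levels, which makes a call easier to reach, so the shares that passed are not strictly comparable. Changes were moderate in size, from a group mean of 1386 in DMSO and 900.8 in AMF for TRA2A to 1278 and 1488 for CLK3 among the genes that passed.

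Leaving out a library changed the number of calls. Without AMF replicate 1 or 2, limma-trend called 0 genes in the whole table, so its 0 of the 39 says nothing of these genes in particular. At an unadjusted p under 0.05 it had 25 and 24 of the 39, all lower, beside 6575 and 6387 of all genes. Without the same libraries voom, a fit on the recovered reads, called 11 and 10 of the 39, all lower, beside 1379 and 1315 of all genes. TRA2A, HNRNPDL, HNRNPR, HNRNPH1, HNRNPA1, HNRNPA0, HNRNPM, HNRNPUL1, SRSF1 and SRSF10 were the 10, and SRSF11 joined them without AMF replicate 1. Without DMSO replicate 1 or 2, limma-trend called 22 and 24, beside 3531 and 3442 of all genes, and voom 28 and 30, beside 6776 and 6580.

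As a share of each library, the 39 genes took 1.15% and 1.13% of all reads in DMSO replicates 1 and 2, and 0.928% and 0.926% in AMF replicates 1 and 2. The hnRNP genes had 0.938% and 0.922% of reads in DMSO and 0.761% and 0.759% in AMF. SR protein and TRA2 genes together had 0.195% and 0.189% in DMSO and 0.152% in each AMF library. For these sums the groups did not overlap, and the libraries of a group lay close together. CLK genes, a far smaller class by reads, had 0.0155% and 0.0153% in DMSO and 0.0140% in each AMF library.

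In the 37 better expressed genes, the median size of the change was 0.33 (log2), against a median gap between replicates of 0.05 in DMSO and 0.05 in AMF. In 34 of the 37 the change was larger than both gaps, a share that was not counted over all genes of that level. In 35 the groups did not overlap, as was so for 79.9% of all genes of that level. DMSO replicate 1 was above DMSO replicate 2 in 28 of the 37, whereas AMF replicate 1 was above AMF replicate 2 in 19. Neither of these counts was made over all genes of that level.

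**Figure D1:**
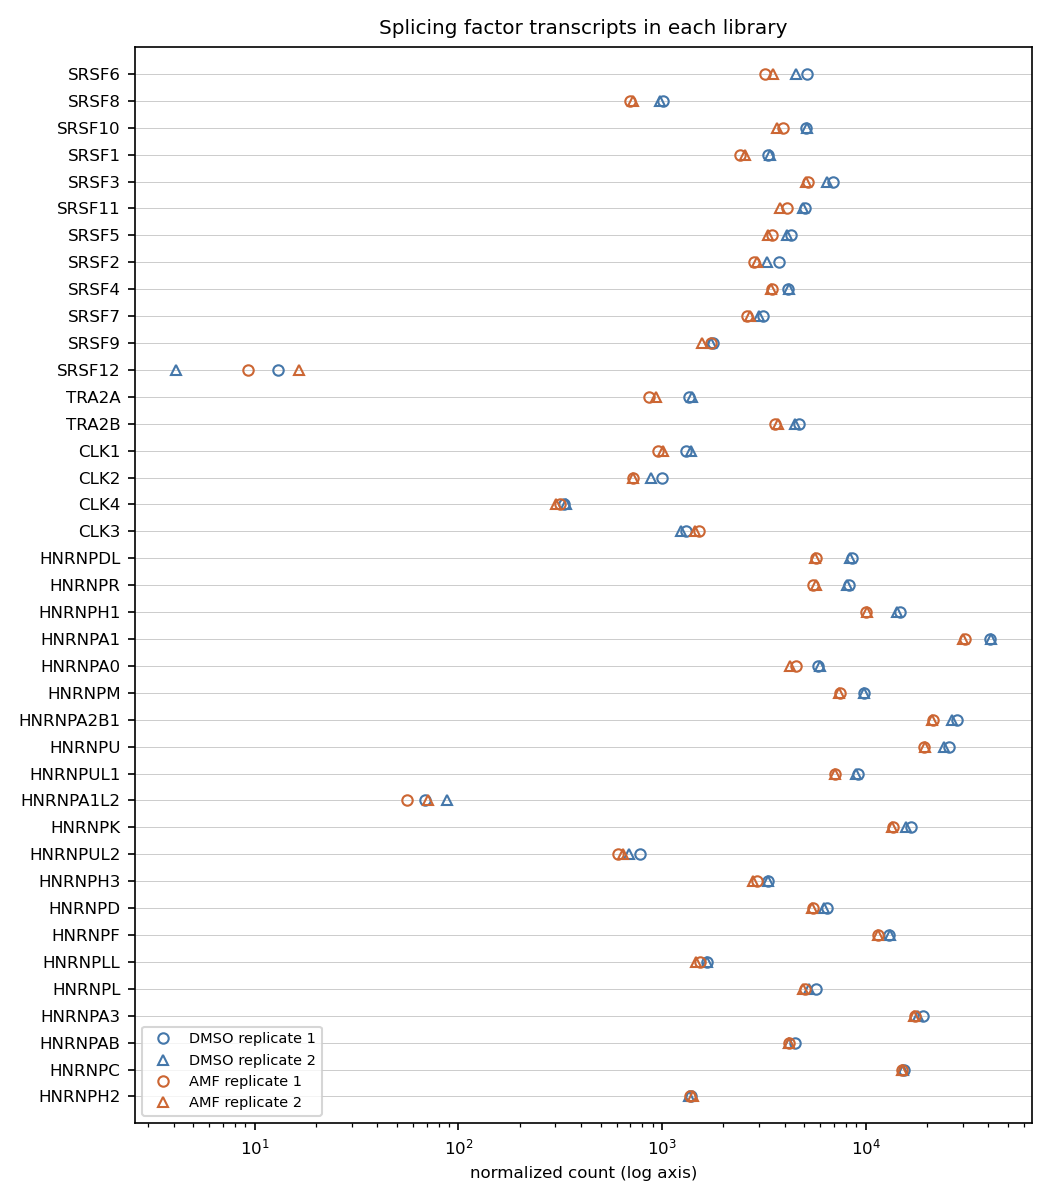
Normalized counts of the 39 splicing factor genes in each library, on a logarithmic axis and grouped by class, with blue symbols for DMSO, orange for AMF, circles for replicate 1 and triangles for replicate 2. HNRNPA1 stands highest at 40790 and 41355 in DMSO, SRSF12 has no more than 16.5 in any library, and most orange symbols lie to the left of the blue ones.

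To show what lies upstream of the genes that the results turn on, the 200 bases before the annotated start are given for the largest fall with a RefSeq promoter entry in each class (SRSF6, TRA2B, CLK1 and HNRNPDL) and for CLK3, which rose. Sequences are from RefSeq on GRCh38.p14, read 5′ to 3′ on the gene's strand, with matches to the motifs named after them in capitals. SRSF6 lies at chr20:43457696-43457895, plus strand. TRA2B lies at chr3:185938015-185938214, minus strand. CLK1 lies at chr2:200864659-200864858, minus strand. HNRNPDL lies at chr4:82430226-82430425, minus strand. CLK3 lies at chr15:74608172-74608371, plus strand.
SRSF6: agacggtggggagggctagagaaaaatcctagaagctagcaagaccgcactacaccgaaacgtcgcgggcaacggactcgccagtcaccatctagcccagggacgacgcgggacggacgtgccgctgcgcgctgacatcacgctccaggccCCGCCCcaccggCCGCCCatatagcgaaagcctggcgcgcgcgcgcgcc
TRA2B: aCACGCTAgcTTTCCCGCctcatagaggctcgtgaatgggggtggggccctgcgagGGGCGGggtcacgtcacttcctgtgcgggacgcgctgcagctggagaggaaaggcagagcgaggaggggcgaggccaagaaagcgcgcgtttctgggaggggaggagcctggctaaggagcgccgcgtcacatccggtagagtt
CLK1: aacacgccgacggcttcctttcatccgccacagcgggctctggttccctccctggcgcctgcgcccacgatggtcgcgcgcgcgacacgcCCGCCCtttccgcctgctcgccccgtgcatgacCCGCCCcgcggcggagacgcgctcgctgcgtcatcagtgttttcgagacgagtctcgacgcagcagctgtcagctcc
HNRNPDL: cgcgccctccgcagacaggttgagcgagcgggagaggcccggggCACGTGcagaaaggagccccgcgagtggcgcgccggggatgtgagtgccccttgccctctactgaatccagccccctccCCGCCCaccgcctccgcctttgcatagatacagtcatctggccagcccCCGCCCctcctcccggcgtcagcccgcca
CLK3: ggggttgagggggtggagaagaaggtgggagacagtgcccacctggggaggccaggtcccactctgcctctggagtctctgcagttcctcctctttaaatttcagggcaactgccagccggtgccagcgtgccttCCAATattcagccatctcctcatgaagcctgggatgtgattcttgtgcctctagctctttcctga

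The capitals mark GC boxes (GGGCGG or its complement) in SRSF6, TRA2B, CLK1 and HNRNPDL, an E2F motif and the core of the xenobiotic response element in TRA2B, an E-box in HNRNPDL and a CCAAT box in CLK3. RefSeq held a promoter for 36 of the 39 genes, and HNRNPA1, SRSF2 and TRA2A had no entry. Over the 250 bases before the start, on both strands, the GC box occurred in 24 of 36 (66.7%), against 69.1% of promoters of genes averaging 100 or more and 42.3% of all promoters. The CCAAT box (CCAAT) occurred in 16 (44.4%, against 35.7% and 33.0%), and the E-box (CACGTG) in 8 (22.2%, against 9.40% and 6.49%). A TATA box (TATAAA) occurred in 5 (13.9%, against 4.68% and 11.1%), an ETS motif (CCGGAAGT) in 3 (8.33%, against 7.98% and 3.64%), and an E2F motif (TTTCCCGC or TTTGGCGC) in 3 (8.33%, against 3.35% and 1.96%). The core of the xenobiotic response element (TNGCGTG) occurred in 3 (8.33%, against 6.12% and 4.53%), and the palindromic NRF1 motif in 0 (against 2.14% and 1.13%). Motifs can overlap one another in GC-rich promoters, and a match is a description of letters. Of the 26 genes with an entry that fell, 16 held a GC box, 10 a CCAAT box and 5 an E-box, and of the other 10 these were held by 8, 6 and 3. The median GC content was 65.4% in the 36 promoters and 58% in all promoters. It was not taken for promoters of genes averaging 100 or more.

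Among the SR protein genes, 10 of 12 fell and 2 did not pass, with a median change of -0.32. The largest fall was that of SRSF6, whose product (SRp55) promotes exon inclusion. SRSF6 had 5148 and 4541 normalized counts in DMSO and 3221 and 3509 in AMF, with no overlap although the DMSO libraries were 0.18 apart (log2). It fell by 0.52, SE 0.0612, adjusted p = 1.11e-05. SRSF8, an intronless copy derived from SRSF2, had 1009.6 and 973 in DMSO and 699 and 722 in AMF, and both AMF libraries were below both DMSO libraries (-0.48, SE 0.0699, adjusted p = 8.60e-05). SRSF3, the smallest SR protein and the highest of this class by normalized count, had 6924 and 6474 in DMSO and 5206.5 and 5092 in AMF, again without overlap (-0.38, SE 0.0461, adjusted p = 1.64e-05). SRSF10, a splicing repressor when dephosphorylated, fell by 0.44, and SRSF1, the founding member also known as ASF/SF2, fell by 0.43. SRSF11 (-0.33), SRSF5 (-0.31), SRSF2 (-0.28), SRSF4 (-0.28) and SRSF7 (-0.20), a shuttling protein close to SRSF3, also fell. SRSF9 did not pass, with 1775 and 1746 in DMSO and 1742 and 1577 in AMF (-0.09, adjusted p = 0.323). SRSF12 was barely expressed, with 13.0 and 4.11 in DMSO and 9.29 and 16.5 in AMF, and its groups overlapped (0.67, SE 0.583, adjusted p = 0.437).

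Both TRA2 genes fell. Their products are sequence-specific activators that bind exonic enhancers and resemble SR proteins. TRA2A had 1362.5 and 1409.6 normalized counts in DMSO and 867 and 934 in AMF, the largest fall among the genes studied (-0.62, SE 0.0664, adjusted p = 4.77e-06). TRA2B, the higher of the pair by normalized count, had 4712 and 4489 in DMSO and 3592 and 3712 in AMF (-0.33, SE 0.0476, adjusted p = 7.35e-05). In neither did the groups overlap. The ratio of TRA2A reads to TRA2B reads was 0.289 and 0.314 in DMSO and 0.241 and 0.252 in AMF. Per kilobase of annotated exon, mean normalized counts in DMSO were 394 for TRA2A and 391 for TRA2B. In AMF these means were 256 for TRA2A and 310 for TRA2B.

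The CLK genes did not move together. CLK1, the best known of these dual-specificity kinases, had 1309.5 and 1392 normalized counts in DMSO and 957 and 1010.6 in AMF, without overlap (-0.46, SE 0.0658, adjusted p = 7.85e-05). CLK2 had 995 and 887 in DMSO and 718 and 719 in AMF, and fell by 0.39 (adjusted p = 0.00111). CLK4, the closest relative of CLK1, had 332 and 338 in DMSO and 317 and 301 in AMF, and did not pass (-0.12, adjusted p = 0.423). CLK3 was the one gene of the 39 that rose, with 1315.5 and 1241 in DMSO and 1520 and 1457 in AMF (0.22, SE 0.0619, adjusted p = 0.0134). Exons of CLK3 overlap those of EDC3, an mRNA decapping factor gene on the opposite strand, and without strand their shared reads cannot be told apart. EDC3 itself had 942 and 843 in DMSO and 1218 and 1180 in AMF (0.43, SE 0.0714, adjusted p = 2.90e-04), and its part in the value of CLK3 was not tested. The call of CLK3 ended with any 1 library left out of limma-trend (adjusted p = 0.229 and 0.189 without AMF replicates 1 and 2, 0.0692 and 0.132 without DMSO replicates 1 and 2) and at an adjusted p of 0.01. The read ratio of CLK2 to CLK3 was 0.756 and 0.715 in DMSO and 0.472 and 0.494 in AMF, and that of CLK1 to CLK4 was 3.95 and 4.12 in DMSO and 3.02 and 3.36 in AMF.

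Among the hnRNP genes, 15 of 21 fell and 6 did not pass, with a median change of -0.26. HNRNPDL, a relative of the AU-rich element binding protein encoded by HNRNPD, had 8593 and 8366 normalized counts in DMSO and 5702 and 5630 in AMF, with no overlap (-0.58, SE 0.0414, adjusted p = 8.05e-08). HNRNPR, whose protein binds RNA in the nucleus and in axons, had 8313 and 8056 in DMSO and 5501 and 5673 in AMF (-0.55, SE 0.0425, adjusted p = 1.82e-07). HNRNPH1, whose protein binds runs of guanines, had 14805 and 14325 in DMSO and 9994 and 10186 in AMF (-0.53, SE 0.0387, adjusted p = 1.06e-07). The AMF libraries were lowest for all of these. HNRNPA1, the abundant splicing repressor that opposes SRSF1 at many exons, had 40790 and 41355 in DMSO and 30664 and 29891 in AMF, without overlap (-0.44, SE 0.0341, adjusted p = 1.89e-07). HNRNPA0 (-0.43), HNRNPM (-0.40), HNRNPA2B1 (-0.36), HNRNPU (-0.36), which encodes a scaffold attachment factor, and HNRNPUL1 (-0.35) also fell. Smaller falls were those of the poly(C)-binding HNRNPK (-0.26), HNRNPUL2 (-0.23), HNRNPH3 (-0.21), HNRNPD (-0.21), HNRNPF (-0.18) and the CA-repeat binding HNRNPL (-0.14).

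The 6 hnRNP genes that did not pass were HNRNPLL (-0.15, adjusted p = 0.0720), HNRNPA3 (-0.10, 0.0650), HNRNPAB (-0.05, 0.518), HNRNPC (-0.03, 0.629), HNRNPH2 (0.03, 0.777) and HNRNPA1L2 (-0.31, 0.338). HNRNPC, whose protein binds uridine tracts on new transcripts, had 15483 and 15304 in DMSO and 15093 and 15123 in AMF. HNRNPH2 had 1382 and 1358 in DMSO and 1371 and 1422 in AMF, with overlapping groups. HNRNPA1L2, an intronless copy related to HNRNPA1, had 69.0 and 88.3 in DMSO and 55.7 and 71.1 in AMF. HNRNPL and HNRNPUL2 passed narrowly (adjusted p = 0.0423 and 0.0480), and both calls ended with a pseudocount of 0.1, without a filter on low genes and with library totals as scaling. Reads of close copies are hard to assign, and 64 hnRNP pseudogenes outside the 39 genes held 522 to 596 reads per library, 0.247% to 0.284% of the reads of the hnRNP genes.

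**Figure D2:**
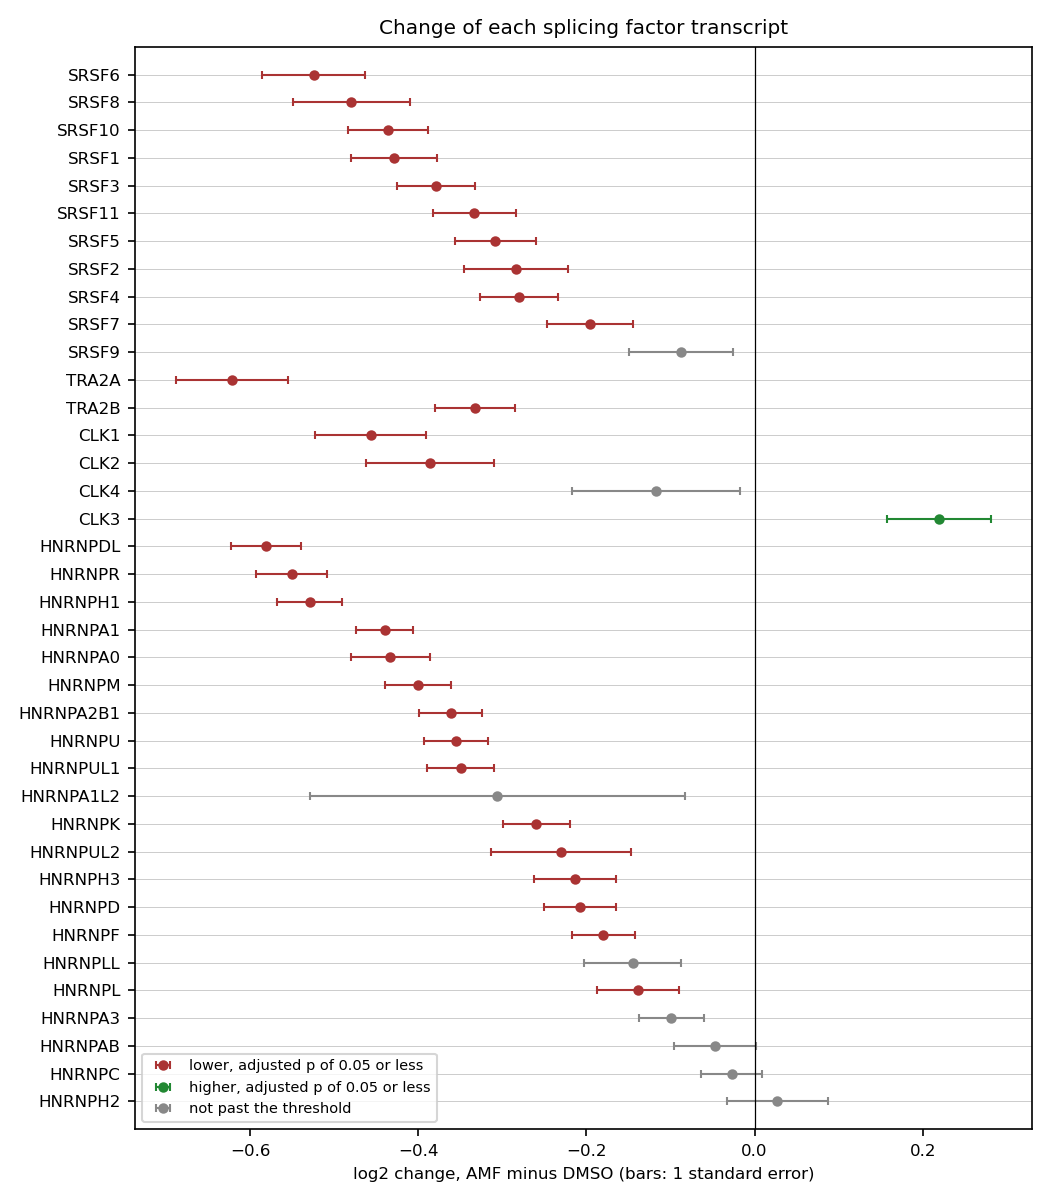
Log2 change of AMF minus DMSO for the splicing factor genes by class (SRSF12, at 0.67 with SE 0.583, is not drawn), with bars of 1 standard error from limma. Red marks genes that fell, green the gene that rose and grey those not past the threshold, and the coloured points run from -0.62 for TRA2A to 0.22 for CLK3.

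Of 16 pairs of related genes, 14 had ratios that did not overlap between the groups, all 14 lower in AMF, and the others overlapped. Whether a ratio is lower or higher depends on which gene of a pair is put first. The share without overlap was not counted over other pairs of genes. Ratios of reads within a library do not depend on the scaling, though their absolute size depends on transcript length, and pairs were chosen with these values known, so they carry no test. HNRNPH1 and HNRNPH2 encode near relatives that bind the same kind of guanine-rich sequence, and their ratio was 10.7 and 10.5 in DMSO and 7.29 and 7.17 in AMF. HNRNPDL to HNRNPD was 1.34 in each DMSO library and 1.04 and 1.03 in AMF. HNRNPA1 to HNRNPA3 was 2.14 and 2.28 in DMSO and 1.76 and 1.73 in AMF. In each of these the AMF libraries were lower than both DMSO libraries. HNRNPL to its paralog HNRNPLL overlapped between the groups (3.43 and 3.16 in DMSO, 3.27 and 3.34 in AMF), as did HNRNPUL1 to HNRNPU (0.356 and 0.370, then 0.367 and 0.362).

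**Figure D3:**
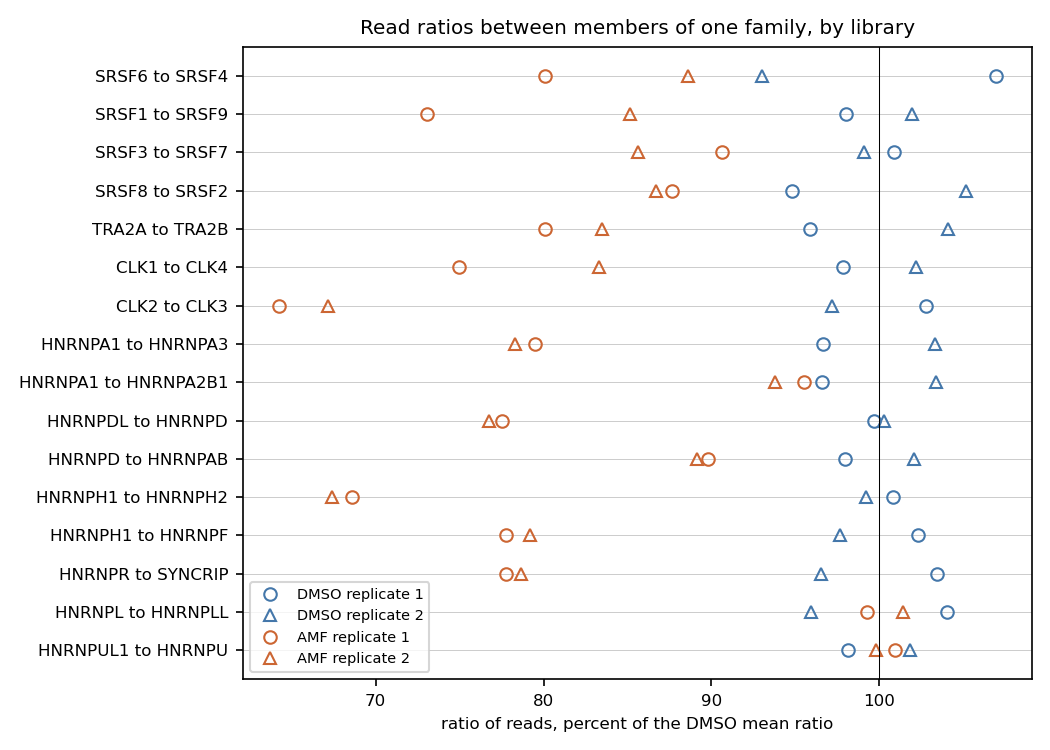
Ratio of reads between related genes in each library, as a percent of the mean ratio in DMSO, for 16 pairs chosen with their values known (blue DMSO, orange AMF, circles replicate 1, triangles replicate 2). The mean ratio of HNRNPH1 to HNRNPH2 decreased by 32.0%, while the libraries of HNRNPL to HNRNPLL and HNRNPUL1 to HNRNPU overlap.

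Levels between genes were compared per kilobase of annotated exon (GENCODE release 29), as mean ± SD of 2 libraries. That length joins the exons of all annotated transcripts of a gene, those with a retained intron included. It was 22512 bases for HNRNPU and 20443 for CLK3, and the order of genes depends on it. HNRNPA1 stood highest at 8065 ± 78.5 normalized counts per kilobase in DMSO and 5945 ± 107 in AMF. HNRNPF followed at 4021 ± 38.0 in DMSO and 3549 ± 1.75 in AMF. The next in DMSO were HNRNPK (3171 ± 128), HNRNPA3 (3082 ± 115) and HNRNPA2B1 (2959.8 ± 113), where each overlapped its neighbour in this order. In AMF these 3 were separate, with HNRNPA3 at 2876 ± 20.7, HNRNPK at 2647.5 ± 4.06 and HNRNPA2B1 at 2303 ± 12.1. The SR genes were led by SRSF2 (1165 ± 115), SRSF6 (1055 ± 93.5) and SRSF1 (1000.4 ± 16.3) in DMSO, where neighbours in this order overlapped. In AMF these were 954.8 ± 29.3, 733 ± 44.3 and 743 ± 28.2, so SRSF2 stood clear of the other two. CLK genes ranged from 42.3 for CLK4 to 261 for CLK1 in DMSO. Over the 37 genes, the change showed a Pearson correlation of -0.21 and a Spearman correlation of -0.07 with the per-kilobase level in DMSO, and -0.01 and -0.07 with exon length, as a description over genes that share the same 4 libraries.

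Annotation of these genes was then set beside the change. Of the 37, GENCODE lists a transcript subject to nonsense-mediated decay for 29, of which 24 fell and 1 rose, with a median change of -0.35. Of the 8 without one, 5 fell and 3 did not pass, with a median of -0.20, and the difference was not tested. Exons overlap those of another gene in 19 of the 39, of which 12 fell, 1 rose and 6 did not pass, with a median of -0.23. Among the 20 without such overlap, 17 fell and 3 did not pass, with a median of -0.41. The difference was not tested, and the split was not made over all genes. Overlaps were taken from another build than the counts. For part of the 19, SRSF1 and HNRNPM among them, no overlapping gene had deposited values under its GENCODE name. TRA2A, HNRNPDL, HNRNPR, HNRNPH1, SRSF6, SRSF8, CLK1 and HNRNPA1, which had the per-library values above, are among those without overlap. SRSF2 overlaps MFSD11, HNRNPU overlaps COX20, HNRNPA2B1 overlaps CBX3 and HNRNPUL1 overlaps TGFB1 on the opposite strand. Of these partners MFSD11 (-0.33), COX20 (-1.16) and TGFB1 (-0.39) fell, and CBX3 did not pass (-0.08, adjusted p = 0.222). Their part in the values of SRSF2, HNRNPU, HNRNPUL1 and HNRNPA2B1 was not tested.

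Other splicing genes were counted from lists of named genes, not by a symbol rule, and also with earlier results of these data known. Their counts stand beside the 54.7% of genes averaging 100 or more that passed, 23.6% higher and 31.1% lower. The core machinery that removes introns was mixed: of 69 genes of the U1, U2, U4/U6.U5 and Sm particles and the catalytic step, 13 rose, 9 fell and 47 did not pass, so 31.9% passed and 13.0% fell, with a median change of -0.02. Of 19 genes of the U1 and U2 particles, 5 rose and 3 fell (median 0.03). SNRPB2 (0.39), a U2 component, and SF3B5 (0.36) rose, whereas SF3B1 (-0.36), the branch site subunit, and SF1 (-0.31), the branch point binding protein, fell. Of 7 Sm core genes, 1 rose, SNRPD2 (0.17), and 1 fell, SNRPD3 (-0.63), with a median of -0.02. Of 21 tri-particle genes, 6 rose and 3 fell (median -0.01), led by LSM4 (0.45) and PRPF4 (0.35) upward and LSM2 (-0.30) and PRPF8 (-0.28), the central scaffold, downward. Of 22 genes of the Prp19 complex and catalytic step, 1 rose (DHX16, 0.20) and 2 fell (DDX46, -0.29, and CDC5L, -0.21), with a median of -0.06.

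Lists of regulators outside the core are given against the same background. All 7 hnRNPs known by other names fell (median -0.40), among them RBMX (-0.79), the X-linked hnRNP G gene. Of 22 SR-related proteins and coactivators, 14 fell, 1 rose (PPIG, 0.20, a cyclophilin) and 7 did not pass (median -0.23), with RBM39 (-0.48) and SREK1 (-0.46) falling by most. Of 26 other splicing regulators tested, 18 fell and 8 did not pass (median -0.21), led by QKI (-0.73) and TIA1 (-0.61). Of 12 genes for SR protein kinases and transport, 5 fell and 2 rose (median -0.07), so 58.3% passed and 41.7% fell, not far from the background. TNPO3 (0.19), which imports SR proteins into the nucleus, and the SR protein kinase SRPK1 (0.16) rose, whereas DYRK1A (-0.38) and PRPF4B (-0.35) fell. Of 15 genes of the exon junction complex and nonsense-mediated decay, 9 fell and 6 did not pass (median -0.21), with UPF3A (-0.61) and SMG9 (-0.41) leading. Differences between these lists were not tested.

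**Figure D4:**
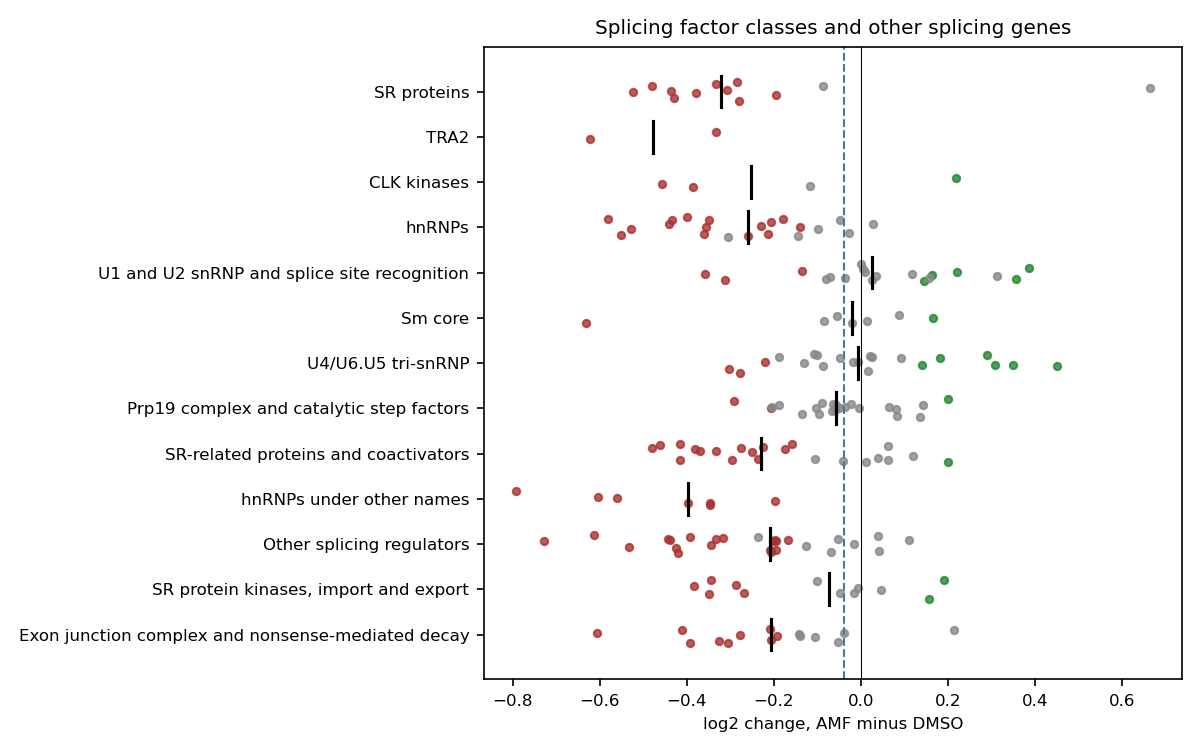
Log2 change of AMF minus DMSO for each tested gene of the 4 splicing factor classes and the other splicing lists, with red for fallen, green for risen and grey for not past the threshold, a black bar at each list's median and a dashed line at the median of genes averaging 100 or more (-0.04). The core lists have points on both sides of 0 and medians from -0.06 to 0.03, and the medians of SR proteins and hnRNPs are -0.32 and -0.26.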

How the data were processed

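RNA was sequenced from 4 HepG2 libraries, 2 treated with DMSO and 2 with AMF, as poly(A)-selected, unstranded libraries (per the labels' protocols). The submitters' processing notes name STAR 2.7.0, featureCounts and hg19. For annotation and normalization, the method is not given in the sources used. The authors deposited values on a log2 scale with a lowest value of 6.01, whose form, read from the values, is a variance-stabilizing transformation. Inverting it gave normalized counts, and 100% of values were whole reads within 0.01, with a wider margin for genes of many reads. Columns were matched by name, with 0 columns of other samples.

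As planned for log2 values, limma 3.58.1 (limma-trend) in R 4.3.3 was run on log2(normalized count + 1) for 23828 genes averaging at least 1, with the group as sole term and Benjamini-Hochberg adjustment over all of them. This scale understates changes of low genes. The procedure was tested on simulated data. Floors of 3 reads and all counts carry counting error, and libraries of a group differed by more than that error. Members and lists were chosen with earlier results of these data known. Per-library values were given for the 8 largest rises and falls among called genes averaging at least 10, the largest rise and fall of each class and its highest member, and up to 2 rises and 2 falls from each other list were named; other members are given beyond this rule, to account for each. One gene that this rule names is not reported here. LUC7L2 and PTPRC were not analysed here. Alternatives were a pseudocount of 0.1, other filters and scalings, stricter thresholds, each library left out, the replicate block and voom. Exon lengths and overlaps came from GENCODE release 29 and promoters from RefSeq GRCh38.p14, on another build than hg19. Figures used matplotlib 3.10.9 in Python 3.11.15.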

Additional observations from a re-analysis of the deposited data

How the results depend on the processing

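The directions of all 30 genes that passed were the same under every alternative run. In each of these genes the groups did not overlap. A library left out, another pseudocount or another filter therefore could not have reversed a direction. Leaving out each library in turn gave 0 to 6776 genes past the threshold, 0 to 30 of the splicing factor genes, 0 to 1 higher and 0 to 30 lower, with their median change from -0.347 to -0.298. By limma-trend 0 genes passed without AMF replicate 1 or 2 (6575 and 6387 at an unadjusted p under 0.05), 3531 without DMSO replicate 1 and 3442 without DMSO replicate 2, when 24 splicing factor genes passed, 24 lower, with a median change of -0.3472. By voom 1379 and 1315 genes passed without AMF replicates 1 and 2, with 11 and 10 of the splicing factor genes, 11 and 10 lower, and the median was -0.3449 without DMSO replicate 2. In limma-trend the prior degrees of freedom were 11.9 with every library and 0.995 without AMF replicate 1. They were infinite with the replicate block, and in voom without DMSO replicate 1 or 2. Counts from those runs thus rest on a variance set across all genes, not on each gene's own spread. An adjusted p of 0.01 left 0 of the splicing factor genes higher. A log2 change of at least 0.5 left 3665 genes and 5 of the splicing factor genes, 0 higher and 5 lower. With the replicate block, 8157 genes and 31 of the splicing factor genes passed, 30 of them lower, with HNRNPA3 added. The replicate numbers do not show that samples are paired, since the gaps between replicates 1 and 2 in DMSO and in AMF correlated at 0.0238 over 11137 genes. Voom without each library was added after seeing the data. With 1 library left in a group, that library is assumed to vary like the others. Depth limits SRSF12, with at most 16 reads in any library.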
